A study of Mus musculus with 23 samples.

Results

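The question examined was whether the difference between macrophages given stearic acid (SA) and macrophages given oleic acid (OA) was itself different after 20 h than after 5 h of treatment. The quantity used for this is the interaction, SA minus OA at 20 h minus the same difference at 5 h, on the log2 scale. It was computed from the 16 fatty acid arrays of a series of 23, for each of the 21789 probe sets that carry 1 gene symbol, out of 35556 in all. A positive interaction means that SA minus OA was higher at 20 h, and a negative one that it was lower at 20 h. Neither the choice of arrays nor the choice of probe sets used measured values.

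Macrophages were grown out of bone marrow from wild-type C57Bl/6 mice. They spent 6 days in M-CSF (10 ng/mL), and treatment began 1 to 3 days after its removal. Both acids were given at 250 µM, bound to fatty acid-free bovine serum albumin (BSA) at 2 molecules of acid per BSA, so albumin was common to all 4 groups. The groups were SA for 20 h, OA for 20 h, SA for 5 h and OA for 5 h, with 4 arrays each. The other 7 arrays held 3 BSA vehicle samples and 4 lipopolysaccharide samples, of 5 h by the labels but of 4 h by the series' design text. The vehicle is called that of 5 h here, and its means are given here beside some genes only as a level. There was no vehicle group at 20 h, so a time effect of albumin or of culture cannot be told apart from one common to both acids, whereas the interaction sets SA against OA within each time. The labels speak of replicate wells and the design text of biological replicates, and neither ties a sample to an animal. The p-values therefore rest on the spread of these samples, which may be technical.

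Stearic acid is a saturated fatty acid, and oleic acid has the same chain length with a double bond. Saturated acids that enter phospholipids stiffen the membrane of the endoplasmic reticulum (ER), and the ER responds through the unfolded protein response. Its sensors IRE1 and ATF6 raise chaperones and degradation factors through the transcription factors XBP1 and cleaved ATF6, and its sensor PERK raises amino acid transporters and CHOP (Ddit3) through ATF4. Macrophages exposed to saturated acids are also known for expression of inflammatory cytokines, and oleic acid is commonly stored as triglyceride.

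The expression values are log2 intensities per probe set, and array medians ran from 3.98 to 4.12. Markers of macrophages fitted the label: averaged over the 16 arrays, Lyz2, Cd68, Adgre1, Csf1r and Itgam lay above 97.1% or more of all probe sets, Fcgr1 above 83.9% and Mertk above 78.6%. Their lowest group means were 5.80 for Mertk in SA cells of 5 h and 5.87 for Fcgr1 in SA cells of 20 h. The probe set median was 4.3. Replicate 2 of the SA 20 h group stood apart, with an SD of its deviations from the group mean of 0.218, against 0.155 to 0.163 for the other arrays of that group, and values without it are given beside the counts of several lists and the genes in which it lay far from the other 3 arrays. Throughout, a probe set was called at a Benjamini-Hochberg adjusted p under 0.05 over all 21789 probe sets in one limma fit of the 4 groups, and ± marks the SD over 4 arrays. For the lists of related genes, each gene is represented by its probe set with the highest mean. Counts of called interactions in a list stand against 1.34% of all probe sets called positive and 2.91% called negative. Those of SA minus OA stand against 6.81% above and 8.33% below at 20 h, and 2.81% above and 1.89% below at 5 h. Those of change with time stand against 5.59% up and 6.03% down under SA, and 2.11% up and 1.5% down under OA.

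The difference between SA and OA was wider at 20 h than at 5 h for most genes in which it changed. The interaction was called for 927 probe sets of 888 genes, 292 positive (1.34% of those tested) and 635 negative (2.91%). Of these, 56 positive and 215 negative ones reached 1 on the log2 scale, a factor of 2, and the median of all 21789 interactions was 0.01 with a median standard error of 0.17. Without replicate 2 of SA 20 h, 338 were positive and 614 negative. At 20 h, SA was above OA in 1483 probe sets (6.81%) and below in 1816 (8.33%), and at 5 h it was above in 613 (2.81%) and below in 412 (1.89%). Of the 729 called at both times, which are 22.1% of the calls at 20 h and 71.1% of those at 5 h, 707 had the same sign. Over all probe sets the difference at 20 h and that at 5 h, which share no arrays, had a Pearson r of 0.50 across genes, a description since genes are not independent.

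**Figure D1:**
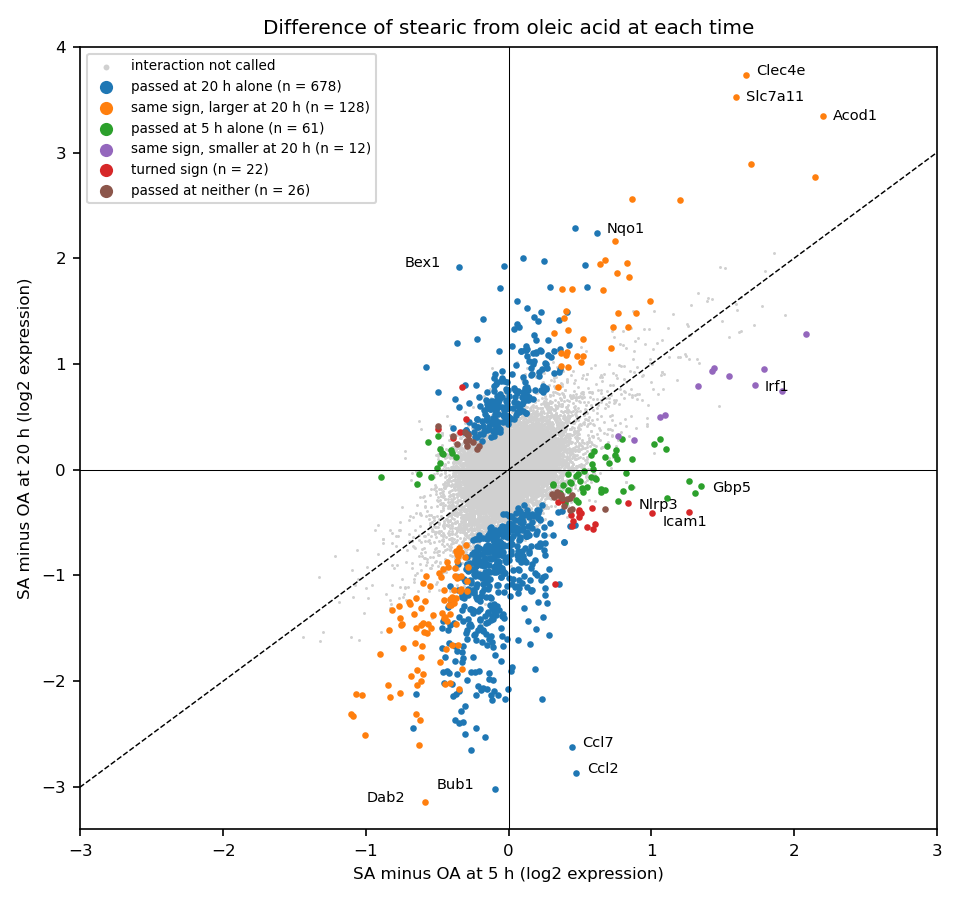
SA minus OA at 20 h (y axis) and SA minus OA at 5 h (x axis), log2 expression, for all 21789 probe sets, each a point. Colours mark the 927 probe sets called for the interaction by the times at which SA differed from OA, and the dashed line marks equal differences; 678 of the coloured points were called at 20 h alone.

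By the calls at each time, 678 of the 927 probe sets (73.1%) had SA apart from OA at 20 h alone, 225 with a positive and 453 with a negative interaction. Another 128 had the same sign at both times and a larger difference at 20 h, among them Slc7a11 and Clec4e. The reverse was rarer. In 61 probe sets SA differed from OA at 5 h alone, and in 12 it differed at both times with the same sign but less at 20 h. In 22 probe sets the sign turned, and 26 were called at neither time taken singly. The sorting depends on the threshold and is a description of the called probe sets.

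By the calls, the change with time was seen mainly in SA cells. SA cells of 20 h differed from SA cells of 5 h in 1219 probe sets upward (5.59%) and 1314 downward (6.03%), whereas OA cells of 20 h differed from OA cells of 5 h in 460 upward (2.11%) and 327 downward (1.5%). Of the 927 probe sets with an interaction, 687 (74.1%) changed with time under SA alone, 229 upward and 458 downward. A smaller set of 93 changed under OA alone, 65 changed under both acids in the same direction, 35 under both in opposite directions, and 47 passed under neither acid. Several of the largest positive interactions nevertheless went with a fall under OA, as the values of Clec4e, Slc7a11 and Acod1 below show. This sorting by acid depends on the threshold. Without a vehicle group at 20 h, a change seen under SA alone cannot be assigned to SA itself.

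**Figure D2:**
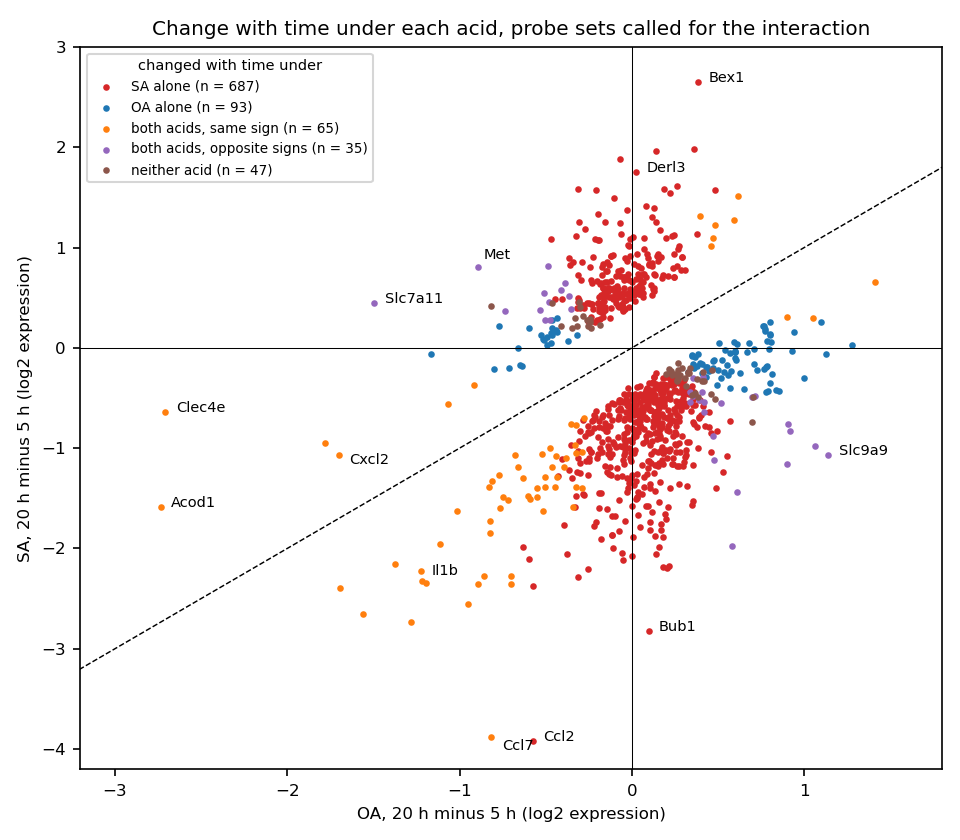
Change with time under SA (y axis) and under OA (x axis), 20 h minus 5 h in log2 expression, for the 927 probe sets called for the interaction. Colours mark the acid under which the change with time passed, and the dashed line marks equal change; Bex1 and Derl3 rose under SA while Acod1, Clec4e and Cxcl2 lie far to the left because they fell most under OA.

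**Figure D3:**
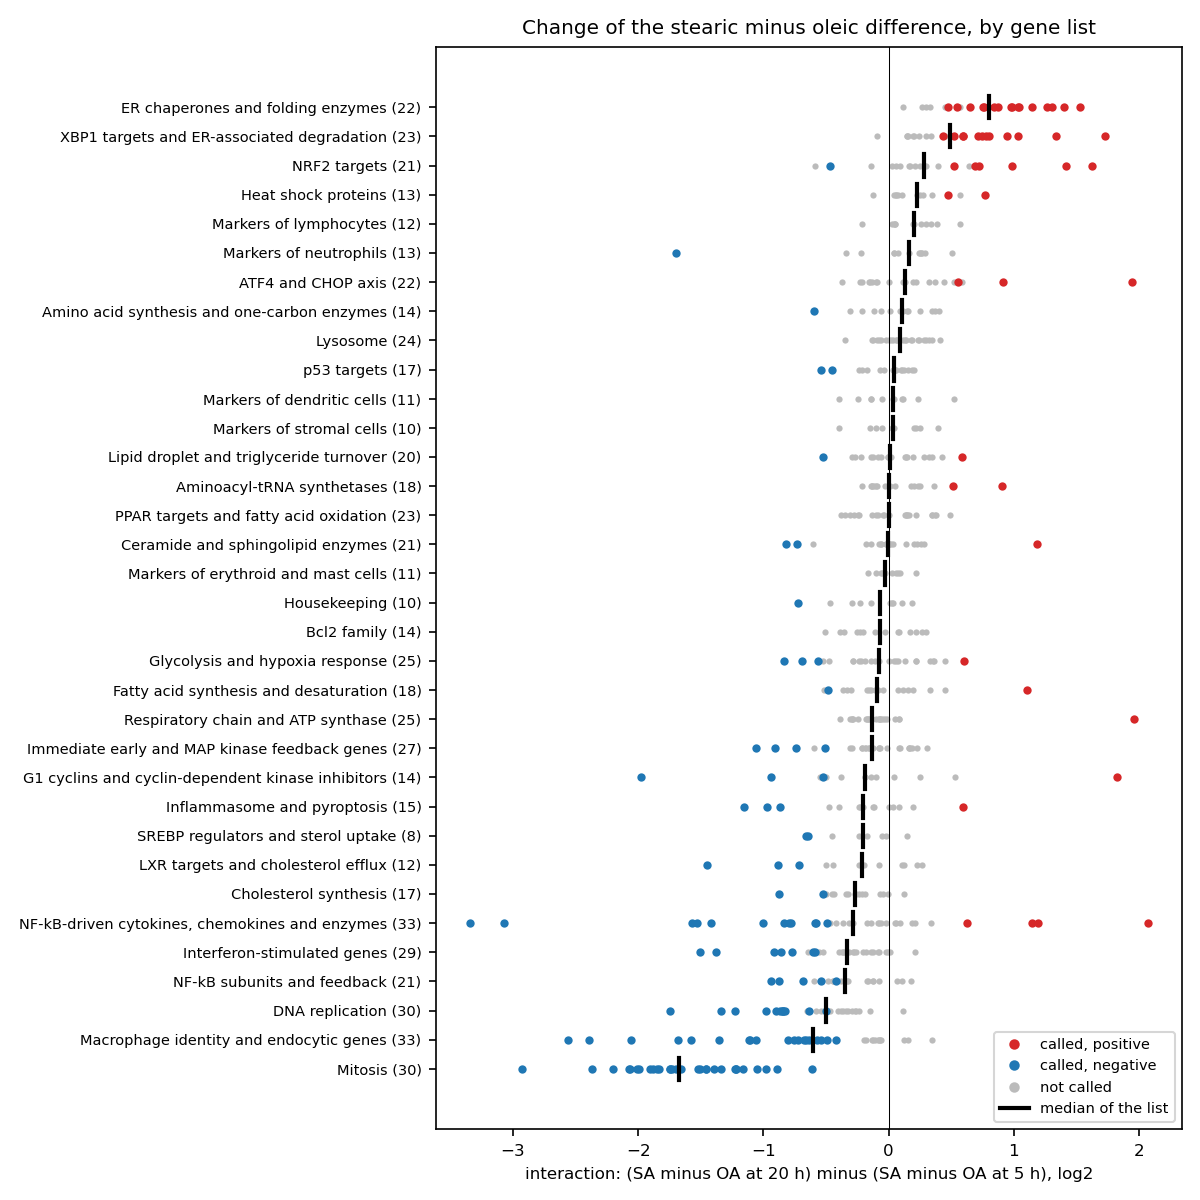
Interaction of each measured gene (point) in the 34 gene lists, ordered by list median (black bar), with the number of measured genes in brackets; the x axis is log2 and 0 means an equal difference at both times. ER chaperones lie on the positive side with a median of 0.80 and mitosis genes on the negative side with all 30 called.

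ER chaperones and folding enzymes gained most as a group. These proteins fold client proteins in the ER lumen or form their disulfide bonds. Of 22 genes, 16 had a called positive interaction and none a called negative one (18 without replicate 2 of SA 20 h), and the list median was 0.80 against 0.01 over all probe sets. At 20 h, 19 of the 22 were higher with SA, and at 5 h 2 were, namely Hspa5 and Ero1a. Under SA 19 of them rose with time, and under OA none rose and 2 fell.

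The promoters of this list often carry the ER stress response element, which is bound by ATF6 together with NF-Y. It was searched as CCAAT, 9 bases of any kind and CCACG, on both strands, in RefSeq windows of 300 bases around the annotated transcription start (GRCm38.p6). Among the 20 members with a window, 8 hold it (40.0%), against 37 of the 27025 genes with a window (0.14%). The 8 are Hspa5, Hsp90b1, Calr, Canx, Pdia6, Dnajc3, Creld2 and Ero1b, of which Canx and Ero1b had no called interaction. The windows of Hspa5, Creld2 and Derl3, the last from the degradation list below, are shown with the element in capitals because these genes carry it and are among the strong positive interactions.
Hspa5, chr2:34771840-34772139, plus strand: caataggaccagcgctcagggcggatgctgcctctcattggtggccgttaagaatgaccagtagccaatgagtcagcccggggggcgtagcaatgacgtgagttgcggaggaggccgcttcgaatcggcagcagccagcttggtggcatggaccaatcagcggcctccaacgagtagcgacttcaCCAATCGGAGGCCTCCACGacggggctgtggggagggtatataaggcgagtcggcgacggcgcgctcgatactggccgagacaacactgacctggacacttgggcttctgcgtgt
Creld2, chr15:88819396-88819695, plus strand: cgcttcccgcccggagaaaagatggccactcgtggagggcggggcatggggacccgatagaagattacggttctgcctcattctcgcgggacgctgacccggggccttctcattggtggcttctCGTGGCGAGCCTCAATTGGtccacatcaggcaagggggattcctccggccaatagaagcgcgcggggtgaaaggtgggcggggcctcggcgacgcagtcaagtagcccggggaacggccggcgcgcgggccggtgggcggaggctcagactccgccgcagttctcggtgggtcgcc
Derl3, chr10:75893148-75893447, plus strand: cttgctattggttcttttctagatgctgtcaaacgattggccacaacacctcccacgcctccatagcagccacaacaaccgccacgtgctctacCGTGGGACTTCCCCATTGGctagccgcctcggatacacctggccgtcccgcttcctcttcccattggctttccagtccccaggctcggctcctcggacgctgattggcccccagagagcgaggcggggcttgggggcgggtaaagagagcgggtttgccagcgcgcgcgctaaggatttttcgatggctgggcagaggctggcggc
The first base of the element lies at -65 from the start in Hspa5, at -126 in Creld2 and at -156 in Derl3, and a match of letters is not evidence of binding.

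Hspa5 encodes BiP, the central ER chaperone that also holds the stress sensors inactive. At 20 h, Hspa5 read 10.58, 10.40, 10.64 and 10.51 on the SA arrays and 9.22, 9.23, 9.24 and 9.25 on the OA arrays. At 5 h, the SA arrays read 9.74, 9.68, 9.75 and 9.73 and the OA arrays 9.44, 9.39, 9.42 and 9.39. SA lay above OA on every array at both times, and the gap was wider at 20 h. The interaction was 0.98 (SE 0.10, adjusted p = 5.77e-06), made of a rise of 0.80 with time under SA and a difference of -0.17 under OA that did not pass, and vehicle cells of 5 h averaged 9.36 ± 0.04 (SD, n = 3).

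Pdia4, a protein disulfide isomerase, showed no such early gap. Pdia4 read 8.20, 8.02, 8.43 and 8.24 in SA cells of 20 h, against 6.67, 6.72, 6.70 and 6.69 in OA cells of 20 h. The values of 5 h were 6.84, 6.86, 6.79 and 6.92 with SA and 6.70, 6.67, 6.94 and 6.59 with OA. The groups overlapped at 5 h and were more than 1 log2 unit apart at 20 h, with an interaction of 1.40 (SE 0.13, adjusted p = 1.93e-06). A dimmer second probe set of Pdia4, with a mean of 3.84 against 7.12, gave 0.69 and was not called (adjusted p = 0.555). Hyou1, an ER chaperone of the HSP110 family, had an interaction of 1.27 (SE 0.13, adjusted p = 4.17e-06). Creld2, a secreted ER protein induced by ER stress, had 1.30 (SE 0.15, adjusted p = 1.58e-05), and the largest of the list was Pdia5, another disulfide isomerase, with 1.53 (SE 0.18, adjusted p = 2.55e-05). In all 3 genes SA lay above OA on every array at 20 h and the groups overlapped at 5 h. Of the members that were not called, Ppib, a prolyl isomerase, had 0.12 and the calcium-binding chaperone Canx 0.33.

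Genes of XBP1 and of ER-associated degradation followed the chaperones. They include co-chaperones, translocon parts and the machinery that returns misfolded proteins to the cytosol. Of 23 genes, 12 had a called positive interaction and none a negative one, with a median of 0.49, and 15 were called without replicate 2 of SA 20 h. With SA, 19 were higher at 20 h and 2 at 5 h, Dnajb9 and Herpud1. The ER stress element was found in the windows of Syvn1 and Derl3, 2 of 20 (10.0%), and the XBP1-type element TGACGTGG in 2 of 20 of this list, in 2 of 20 of the chaperone list and in 0.71% of all genes.

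Dnajb9, or ERdj4, is an ER co-chaperone and an established XBP1 target. The SA arrays of 20 h held 9.36, 9.33, 9.52 and 9.28 for Dnajb9, and the OA arrays 7.66, 7.74, 7.62 and 7.63. SA cells of 5 h had 7.94, 8.02, 7.92 and 7.93, against 7.71, 7.39, 7.62 and 7.61 in OA cells of 5 h. SA exceeded OA on every array at both times, and its interaction was 1.34 (SE 0.12, adjusted p = 1.11e-06). Derl3, a channel component of ER-associated degradation, had the largest interaction of the list. Log2 expression of Derl3 was 6.51, 5.94, 6.74 and 5.97 in SA cells and 4.29, 4.30, 4.31 and 4.38 in OA cells at 20 h. At the earlier time it was 4.50, 4.57, 4.23 and 4.84 in SA cells and 4.29, 4.30, 4.37 and 4.21 in OA cells. OA cells had a low level at both times, SA cells of 20 h lay above all other arrays and varied most, and the interaction was 1.73 (SE 0.22, adjusted p = 4.79e-05). Edem2, which trims mannose on misfolded glycoproteins, had 0.94 (SE 0.12, adjusted p = 4.31e-05), and the COPII coat subunit Sec24d had 1.03 (SE 0.13, adjusted p = 3.46e-05). Fkbp11, an ER prolyl isomerase outside these lists, was among the 10 largest positive interactions of all, with 1.78 (SE 0.18, adjusted p = 3.51e-06).

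Herpud1 differed from that course, and Xbp1 followed it with an interaction that did not pass. Herpud1, an ER membrane protein of the degradation complex, stood 1.40 above OA at 20 h and was already 1.50 above it at 5 h, an interaction of -0.09 (adjusted p = 0.878). The Xbp1 transcript had an interaction of 0.30 (SE 0.11, adjusted p = 0.177), with SA above OA by 0.34 at 20 h, a called difference, and by 0.04 at 5 h, which was not called. These values measure total transcript and say nothing of its splicing.

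The ATF4 and CHOP branch had its difference at 5 h already. SA was above OA in 15 of its 22 genes at 20 h and in 13 at 5 h. The list median of SA minus OA was 0.910 at 20 h and 0.585 at 5 h. A called interaction was found in 3 genes, all positive, where 1.34% of all probe sets were called positive. The list median of the interaction was 0.13, with a positive sign in 13 genes and a negative sign in 9. Without replicate 2 of SA 20 h, 5 were called. The element bound by ATF4 with C/EBP factors, searched as TGATG, any base and AA, occurs in the windows of 7 of 20 genes (35.0%), against 4.51% of all genes. Of the 3 genes with a called interaction, 1 carries it.

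Ddit3, the transcription factor CHOP, shows the pattern of the branch. At 20 h, Ddit3 read 8.91, 8.81, 9.03 and 8.90 on the SA arrays and 6.99, 6.95, 6.93 and 7.09 on the OA arrays. At 5 h, the SA arrays read 7.96, 7.85, 8.20 and 8.11 and the OA arrays 6.55, 6.44, 6.61 and 6.59. SA was far above OA on all arrays at both times, and the interaction of 0.44 did not pass (adjusted p = 0.0539). It did pass under 7 alternative settings, among them quantile normalization with 0.56 (adjusted p = 0.00435) and the fit without replicate 2 of SA 20 h. Ppp1r15a, the phosphatase subunit that reverses the stress block of translation, was 2.05 above OA at 20 h and 1.86 above at 5 h, with an interaction of 0.19 (adjusted p = 0.758). Atf4 itself had 1.14 at 20 h and 1.01 at 5 h, and Chac1, a glutathione-degrading enzyme, 1.05 and 1.26, with neither interaction called.

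Slc7a11 was one of the 3 genes of the branch with a called interaction. It encodes the cystine transporter xCT, a target of both ATF4 and NRF2. Slc7a11 read 8.97, 8.92, 9.07 and 8.83 in SA cells of 20 h, against 5.49, 5.54, 5.00 and 5.64 in OA cells of 20 h. The values of 5 h were 8.47, 8.46, 8.56 and 8.52 with SA and 6.94, 6.95, 6.95 and 6.80 with OA. OA cells of 20 h were the lowest and SA cells of 20 h the highest of the 4 groups, with no overlap between any of them. The interaction of 1.94 (SE 0.16, adjusted p = 5.17e-07) combined a rise of 0.45 with time under SA and a fall of 1.49 on the log2 scale under OA, both called. Vehicle cells of 5 h, at 7.49 ± 0.15 (SD, n = 3), stood between SA and OA cells of that time. Slc3a2, the heavy chain that pairs with it, had 0.56 (SE 0.11, adjusted p = 0.00575), and the glycine transporter Slc6a9 had 0.91 (SE 0.16, adjusted p = 0.00144).
The Slc7a11 window is shown because it holds the ATF4-type element in both orientations, in capitals.
Slc7a11, chr3:50443564-50443863, minus strand: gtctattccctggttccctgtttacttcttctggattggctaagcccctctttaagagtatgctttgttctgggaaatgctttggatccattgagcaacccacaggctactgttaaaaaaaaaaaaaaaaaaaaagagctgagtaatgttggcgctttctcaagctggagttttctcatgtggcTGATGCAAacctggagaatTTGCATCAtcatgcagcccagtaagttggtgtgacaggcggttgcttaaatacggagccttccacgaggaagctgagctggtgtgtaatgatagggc

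In enzymes of amino acid synthesis and one-carbon metabolism, the count of calls was near the share over all probe sets (1.34% positive, 2.91% negative). Of 14, none was called positive and 1 negative, the serine synthesis enzyme Psat1 (-0.60, adjusted p = 0.0105). Asns, which makes asparagine, was 1.28 above OA at 20 h and 1.26 above at 5 h, an interaction of 0.01. Among 18 aminoacyl-tRNA synthetases 2 were called positive, where 1.34% of all probe sets were, and none negative. The 2 were Wars (0.91, adjusted p = 0.0013) and Eprs (0.51, adjusted p = 0.0206). Of the 18, 9 were above OA at 20 h against 5 at 5 h.

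NRF2 targets, which make glutathione and detoxify oxidants and quinones, gained in part. Of 21 genes, 6 had a called positive and 1 a called negative interaction, with a median of 0.28, and the counts were the same without replicate 2 of SA 20 h. With SA, 15 were higher at 20 h and 10 at 5 h. The antioxidant response element, searched as TGAC, 3 bases of any kind and GC, is in 8 of 17 windows (47.1%), against 14.0% of all genes. Of the 6 called members with a window, 4 carry it.

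Gsta3, a glutathione transferase, had one of the larger interactions of the list. The SA arrays of 20 h held 6.10, 6.24, 6.35 and 6.47 for Gsta3, and the OA arrays 4.10, 4.09, 4.29 and 4.03. SA cells of 5 h had 5.22, 4.94, 5.06 and 4.91, against 4.24, 4.21, 4.48 and 4.21 in OA cells of 5 h. The SA arrays lay above all OA arrays at both times, by more at 20 h, with an interaction of 1.42 (SE 0.14, adjusted p = 4.71e-06). Nqo1, a quinone reductase, had 1.63 (SE 0.31, adjusted p = 0.00344), with group means of 5.38 ± 0.34 in SA and 3.13 ± 0.27 in OA cells at 20 h, and 3.39 ± 0.44 in SA and 2.78 ± 0.38 in OA cells at 5 h (SD, n = 4 each) and overlapping groups at 5 h. Gclm, the regulatory subunit of the enzyme that starts glutathione synthesis, had 0.99 (SE 0.12, adjusted p = 2.65e-05), made of a difference of 0.21 with time under SA that did not pass and a fall of 0.77 on the log2 scale under OA. Without replicate 2 of SA 20 h, the interaction of Gclm was 1.05. Cat, which breaks down hydrogen peroxide, had 0.72 (SE 0.15, adjusted p = 0.00785) through a rise under SA of 0.99. The negative call was Hmox1, or heme oxygenase, with -0.47 (adjusted p = 0.0201), 0.22 above OA at 20 h and 0.69 above at 5 h. Centring the arrays on their medians removed the call of Hmox1.
The window of Gclm is printed with its antioxidant element in capitals, as a called member that carries the element.
Gclm, chr3:122245307-122245606, plus strand: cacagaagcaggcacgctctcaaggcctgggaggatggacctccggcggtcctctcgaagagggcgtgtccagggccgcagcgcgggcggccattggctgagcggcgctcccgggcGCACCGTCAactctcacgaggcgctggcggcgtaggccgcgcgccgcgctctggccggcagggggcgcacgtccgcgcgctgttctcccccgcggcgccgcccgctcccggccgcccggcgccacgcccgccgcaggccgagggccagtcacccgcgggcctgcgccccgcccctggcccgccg

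Mitosis genes had the most uniform interaction of the 34 lists. All 30 measured genes of spindle assembly, chromosome segregation and cytokinesis had a called negative interaction, ranging from -2.92 to -0.61 with a median of -1.68, against a background of 2.91% of probe sets called negative. At 20 h SA was below OA in all 30, at 5 h in 1, Birc5. All 30 fell with time under SA and none had a called change under OA, and all 30 calls stood without replicate 2 of SA 20 h. In SA cells of 20 h the list was dim, with a mean of 4.21 against a probe set median of 4.3. Bub1 averaged 2.93 and Anln 3.3 in those cells. Fewer dividing cells and less of these RNAs per cell cannot be told apart in bulk RNA, nor can a change in any cell type's share below.

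Bub1, a kinase of the spindle checkpoint, had the largest interaction of the list. Log2 expression of Bub1 was 3.07, 2.29, 3.22 and 3.15 in SA cells and 5.95, 5.89, 5.84 and 6.12 in OA cells at 20 h. At the earlier time it was 5.48, 6.05, 5.66 and 5.84 in SA cells and 6.04, 5.72, 5.94 and 5.72 in OA cells. The 3 other groups overlapped one another, and SA cells of 20 h lay apart below them. Replicate 2 was the lowest of that group, and the interaction was -2.92 (SE 0.24, adjusted p = 4.55e-07), or -2.71 without that replicate (adjusted p = 2.85e-07). Top2a, the topoisomerase that untangles chromosomes, behaved alike. At 20 h, Top2a read 4.92, 4.66, 4.80 and 5.12 on the SA arrays and 7.42, 7.50, 7.41 and 7.18 on the OA arrays. At 5 h, the SA arrays read 6.94, 6.94, 6.79 and 7.07 and the OA arrays 7.37, 6.98, 7.25 and 7.35. Its interaction was -2.20 (SE 0.16, adjusted p = 1.41e-07), whereas a dimmer second probe set, with a mean of 4.40 against 6.61, gave 0.20 (adjusted p = 0.819). Ccna2, the cyclin of S phase and mitotic entry, had -2.07 (SE 0.14, adjusted p = 1.15e-07). Anln, which builds the cytokinetic ring, had -2.36 (SE 0.14, adjusted p = 2.51e-08), and the proliferation marker Mki67 had -2.06 (adjusted p = 6.09e-07). In none of these genes did OA cells of 20 h differ from OA cells of 5 h by a called amount.

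The cell cycle homology region, searched as TTTGAA, is the element through which DREAM and related complexes control late cell cycle genes. It occurs in 21 of the 26 mitosis windows (80.8%), against 20.2% of all genes. The windows of Top2a and Cdk1, the kinase of mitotic entry, each hold it more than once and are shown with it in capitals.
Top2a, chr11:99024140-99024439, minus strand: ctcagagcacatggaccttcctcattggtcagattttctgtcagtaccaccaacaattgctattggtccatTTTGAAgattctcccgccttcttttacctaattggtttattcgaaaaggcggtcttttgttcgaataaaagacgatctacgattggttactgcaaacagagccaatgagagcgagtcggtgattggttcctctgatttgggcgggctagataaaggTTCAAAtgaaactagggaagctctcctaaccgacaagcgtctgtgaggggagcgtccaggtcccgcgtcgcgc
Cdk1, chr10:69352863-69353162, minus strand: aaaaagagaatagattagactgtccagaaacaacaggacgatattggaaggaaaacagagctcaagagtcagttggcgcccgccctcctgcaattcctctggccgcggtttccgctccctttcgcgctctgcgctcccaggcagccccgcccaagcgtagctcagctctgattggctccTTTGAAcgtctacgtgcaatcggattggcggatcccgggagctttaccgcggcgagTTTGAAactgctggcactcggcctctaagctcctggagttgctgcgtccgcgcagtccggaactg
Cdk1 had an interaction of -1.51 (adjusted p = 0.000136), with SA 1.66 below OA at 20 h and 0.15 below at 5 h.

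DNA replication genes were lower with SA at 20 h, and fewer of them at 5 h. SA was below OA in 28 of 30 at 20 h and in 9 of 30 at 5 h, and 12 had a called negative interaction (13 without replicate 2 of SA 20 h), with a median of -0.50. The largest were the ribonucleotide reductase subunits Rrm2, with -1.74 (SE 0.25, adjusted p = 0.000173), and Rrm1, with -1.34 (SE 0.15, adjusted p = 9.81e-06). Rrm2 was dim in SA cells of 20 h, with a mean of 3.67. Rrm1 averaged 5.06 ± 0.22 in SA and 6.99 ± 0.11 in OA cells at 20 h, and 6.41 ± 0.08 in SA and 7.01 ± 0.09 in OA cells at 5 h (SD, n = 4 each). Uhrf1, which keeps DNA methylation through replication, had -1.22 (SE 0.19, adjusted p = 0.000392), and the primase subunit Prim1 had -0.98 (SE 0.24, adjusted p = 0.0254), a call lost under 9 alternatives. A replication-dependent histone H2A gene, H2ac4, had -2.40 (SE 0.32, adjusted p = 0.000114), and Prr11, another cell cycle gene, had -2.14 (SE 0.23, adjusted p = 6.66e-06).

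Among 14 G1 cyclins and cyclin-dependent kinase inhibitors, the interaction was called positive for Cdkn1c and negative for 3. Ccnd1, the D cyclin that growth factors induce, was the strongest. Ccnd1 read 6.76, 6.38, 6.24 and 6.63 in SA cells of 20 h, against 9.13, 9.01, 9.21 and 9.08 in OA cells of 20 h. The values of 5 h were 8.75, 8.87, 8.61 and 8.92 with SA and 9.62, 9.13, 9.54 and 9.38 with OA. SA was below OA on all arrays at both times, and the interaction was -1.98 (SE 0.17, adjusted p = 9.99e-07). Cdk6, the kinase partner of D cyclins, had -0.94 (SE 0.13, adjusted p = 0.000146), and the inhibitor Cdkn2c had -0.52 (SE 0.14, adjusted p = 0.0428), a call lost under 16 alternatives. Cdkn1c, the inhibitor p57, ran the other way. The SA arrays of 20 h held 8.16, 7.15, 7.52 and 7.88 for Cdkn1c, and the OA arrays 5.31, 5.65, 5.39 and 5.20. SA cells of 5 h had 5.45, 5.61, 5.96 and 5.83, against 5.42, 5.21, 5.20 and 5.15 in OA cells of 5 h. SA cells of 20 h stood at least 1 log2 unit above every other array, and the interaction was 1.82 (SE 0.24, adjusted p = 8.73e-05). Of 17 p53 targets none was called positive and 2 negative, Sesn1 (-0.54, adjusted p = 0.0137) and Plk2 (-0.45, adjusted p = 0.0122).

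**Figure D4:**
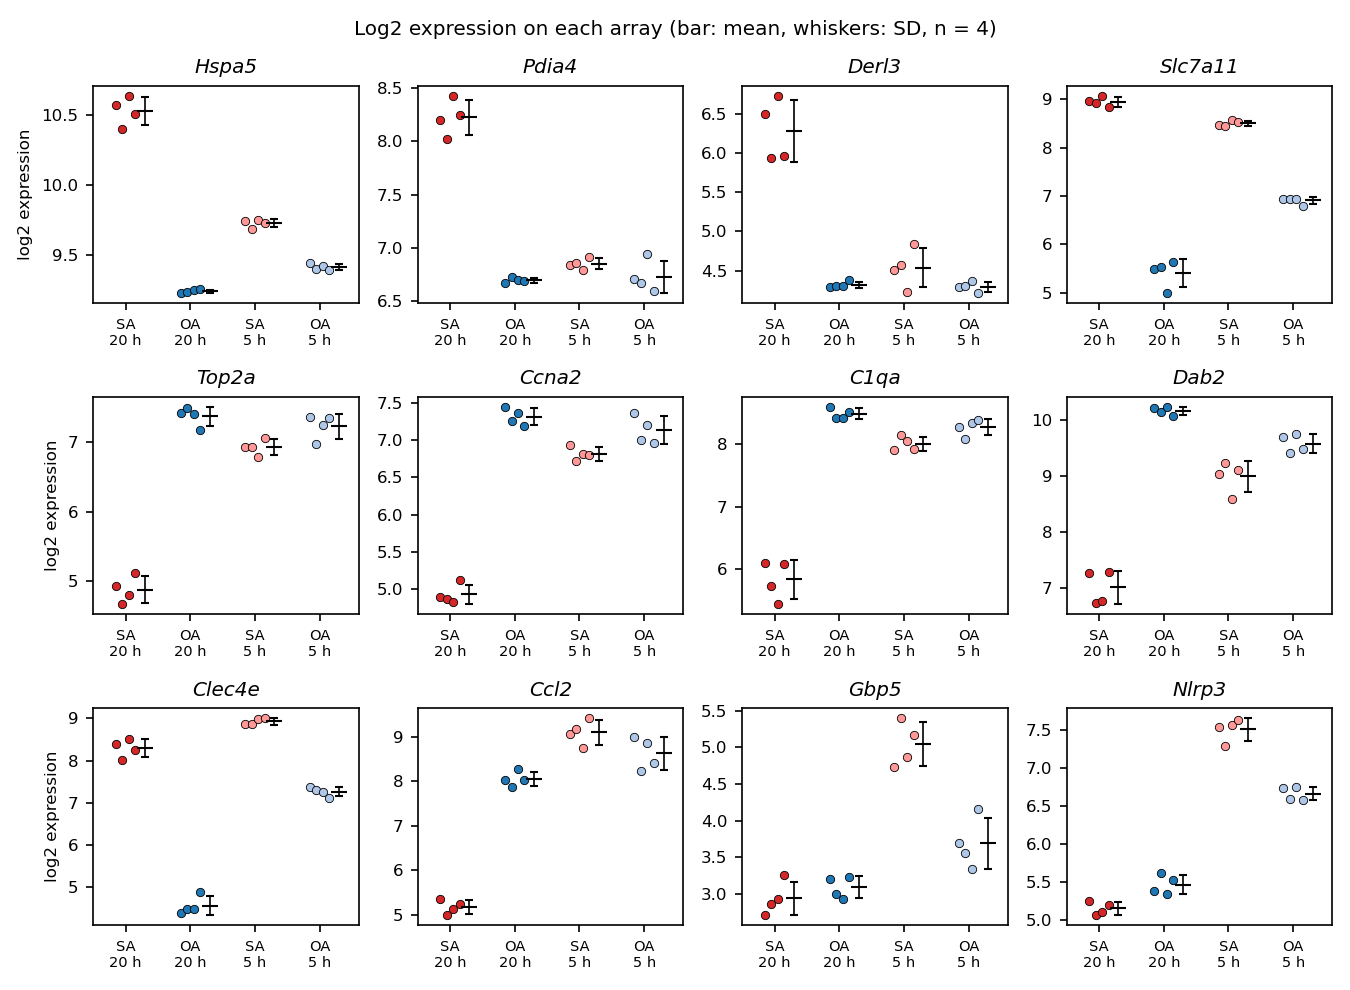
Log2 expression of 12 genes on each of the 16 arrays (points), with the group mean and SD (bar and whiskers, n = 4), for SA 20 h, OA 20 h, SA 5 h and OA 5 h; each panel has its own y axis, which does not start at 0. Hspa5, Pdia4 and Derl3 are highest in SA cells of 20 h, Top2a, Ccna2, C1qa and Dab2 lowest there, and Clec4e and Slc7a11 are lowest in OA cells of 20 h.

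Macrophage identity and endocytic genes were lower with SA and more so at 20 h. Of 33 genes, 19 had a called negative interaction and none a positive one, with a median of -0.61, and 19 were called without replicate 2 of SA 20 h. SA was below OA in 25 at 20 h and in 9 at 5 h, and above in none at either time. Under SA 2 of the 33 rose with time and 18 fell, under OA 8 rose and 4 fell. Cd68 and Lyz2, which mark macrophages at high level, had interactions of 0.12 and -0.13 that were not called, and the lineage factor Spi1 (PU.1) had -0.20.

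C1qa encodes a chain of complement C1q, which macrophages secrete. Log2 expression of C1qa was 6.10, 5.73, 5.44 and 6.08 in SA cells and 8.60, 8.42, 8.42 and 8.52 in OA cells at 20 h. At the earlier time it was 7.91, 8.14, 8.05 and 7.93 in SA cells and 8.28, 8.09, 8.34 and 8.39 in OA cells. All SA arrays of 20 h were more than 1 log2 unit below every other array, and the interaction was -2.39 (SE 0.18, adjusted p = 1.81e-07). C1qb followed with -1.68 (SE 0.15, adjusted p = 8.39e-07) and C1qc with -1.35 (adjusted p = 4.04e-07). Dab2, an adaptor of endocytosis, had the largest of the list. At 20 h, Dab2 read 7.27, 6.74, 6.78 and 7.28 on the SA arrays and 10.22, 10.14, 10.22 and 10.07 on the OA arrays. At 5 h, the SA arrays read 9.03, 9.24, 8.60 and 9.11 and the OA arrays 9.69, 9.41, 9.75 and 9.48. SA was below OA at both times, SA fell by 1.98 on the log2 scale with time while OA rose by 0.58, and the interaction was -2.56 (SE 0.20, adjusted p = 4.04e-07). A second, dim Dab2 probe set with a mean of 1.51 against 8.94 gave 0.14 and was not called (adjusted p = 0.707).

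Mrc1, the mannose receptor, moved apart in both directions. Mrc1 read 6.49, 6.38, 6.13 and 6.53 in SA cells of 20 h, against 8.65, 8.58, 8.36 and 8.44 in OA cells of 20 h. The values of 5 h were 7.85, 7.87, 7.71 and 7.86 with SA and 7.88, 7.78, 7.97 and 7.96 with OA. The 5 h groups overlapped, after which SA cells were lower and OA cells higher, with an interaction of -2.06 (SE 0.14, adjusted p = 1.15e-07). Cx3cr1, the fractalkine receptor, averaged 5.01 ± 0.33 in SA and 7.15 ± 0.03 in OA cells at 20 h, and 7.34 ± 0.11 in SA and 8.36 ± 0.06 in OA cells at 5 h (SD, n = 4 each). It was lower under both acids at 20 h than at 5 h, by more under SA, with -1.11 (SE 0.17, adjusted p = 0.000478). Fcgr1, the high-affinity IgG receptor, had -1.06 (adjusted p = 0.000218), the scavenger receptors Stab1 and Msr1 had -1.58 (adjusted p = 7.68e-07) and -1.11 (adjusted p = 2.67e-06), and Csf1r, the M-CSF receptor, had -0.42 (adjusted p = 0.0206). Slc9a9, an endosomal sodium-proton exchanger outside the list, had -2.21 (SE 0.22, adjusted p = 2.83e-06), and with time it fell by 1.07 under SA and rose by 1.14 under OA on the log2 scale.

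Cytokines, chemokines and enzymes driven by NF-kB split into opposite courses. Of 33, 4 had a called positive and 12 a called negative interaction, with a median of -0.29, and 11 were negative without replicate 2 of SA 20 h. SA was above OA in 15 and below in 7 at 20 h, and above in 17 and below in none at 5 h. With time, 22 fell and 1 rose under SA, and 16 fell and none rose under OA.

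The monocyte chemoattractants Ccl2 and Ccl7 had the called interactions of greatest size. The SA arrays of 20 h held 5.36, 4.99, 5.13 and 5.24 for Ccl2, and the OA arrays 8.02, 7.87, 8.26 and 8.03. SA cells of 5 h had 9.06, 9.18, 8.74 and 9.42, against 8.98, 8.23, 8.86 and 8.40 in OA cells of 5 h. Ccl2 overlapped between the acids at 5 h, and at 20 h all SA arrays were more than 2 log2 units below all OA arrays. The interaction was -3.34 (SE 0.23, adjusted p = 1.15e-07), and the vehicle of 5 h averaged 9.05 ± 0.28 (SD, n = 3). Ccl7 had -3.07 (SE 0.29, adjusted p = 2.28e-06) and group means of 4.29 ± 0.45 in SA and 6.91 ± 0.31 in OA cells at 20 h, and 8.17 ± 0.30 in SA and 7.73 ± 0.28 in OA cells at 5 h (SD, n = 4 each). Ccl4, a chemokine for monocytes and lymphocytes, had -1.53 (adjusted p = 4.29e-06), Marcksl1, an actin-regulating protein, -1.57 (SE 0.19, adjusted p = 2.65e-05), and the cytokine Il1b -1.0 (SE 0.22, adjusted p = 0.00941). Il1b averaged 3.25 ± 0.27 in SA and 4.58 ± 0.30 in OA cells at 20 h, and 5.48 ± 0.22 in SA and 5.80 ± 0.15 in OA cells at 5 h (SD, n = 4 each), so that SA was below OA at 20 h, and SA and OA overlapped at 5 h.

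The neutrophil chemokines did not move as one. Cxcl2 had a positive interaction, 0.63 (SE 0.14, adjusted p = 0.0118), whereas Cxcl1 had -0.83 (adjusted p = 0.00309) and Cxcl3 -0.80 (adjusted p = 0.00173). SA was above OA in all 3 at both times, Cxcl1 by 0.96 at 20 h and 1.79 at 5 h, Cxcl3 by 1.29 and 2.08. Log2 expression of Cxcl2 was 9.64, 9.58, 9.87 and 9.49 in SA cells and 6.88, 6.84, 7.08 and 6.69 in OA cells at 20 h. At the earlier time it was 10.59, 10.69, 10.79 and 10.80 in SA cells and 8.62, 8.46, 8.59 and 8.61 in OA cells. Cxcl2 fell with time under both acids, by 1.07 under SA and by 1.70 under OA on the log2 scale, without overlap between the acids at either time. Tnf also fell under both, and its interaction of -0.32 did not pass (adjusted p = 0.166) except in the fit with a variance trend (adjusted p = 0.0353). Il6, with group means between 1.60 and 2.24, was dim and had an interaction of 0.34 (SE 0.26, adjusted p = 0.668).

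Clec4e, Acod1 and Csf1 joined Cxcl2 on the positive side. Clec4e encodes Mincle, a C-type lectin receptor for mycobacterial glycolipid and dead cells. At 20 h, Clec4e read 8.39, 8.02, 8.52 and 8.24 on the SA arrays and 4.39, 4.48, 4.47 and 4.88 on the OA arrays. At 5 h, the SA arrays read 8.85, 8.86, 8.99 and 9.01 and the OA arrays 7.37, 7.31, 7.26 and 7.12. OA cells of 20 h were lower than all other arrays by more than 2 log2 units, and SA cells were above OA cells on every array at both times. The interaction was 2.07 (SE 0.17, adjusted p = 4.04e-07), and with time it fell by 0.64 under SA and by 2.71 under OA on the log2 scale, while vehicle cells of 5 h averaged 7.84 ± 0.06 (SD, n = 3). Acod1, which makes itaconate, fell by 1.59 under SA and by 2.73 under OA, an interaction of 1.14 (SE 0.18, adjusted p = 0.000409). Csf1, or M-CSF, the growth factor of these cells, was 2.90 above OA at 20 h and 1.70 above at 5 h, with an interaction of 1.20 (adjusted p = 0.000254).

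NF-kB subunits and their feedback inhibitors had some negative interactions. Of 21 genes, SA was above OA in 5 and below in 3 at 20 h, and above in 14 at 5 h. The interaction was called negative for 5 and positive for none, with a median of -0.35. Without replicate 2 of SA 20 h 4 were negative, and with arrays centred on their medians 3 were. The largest was Nfkbiz, or IkB-zeta, with -0.94 (SE 0.13, adjusted p = 0.000148). Tnip3 had -0.88 (SE 0.14, adjusted p = 0.000699), the mRNA decay factor Zfp36 -0.54 (SE 0.13, adjusted p = 0.0179), and Bcl3, a nuclear IkB protein, -0.68 (SE 0.19, adjusted p = 0.0463), a call lost under 14 alternatives.

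Interferon-stimulated genes had some negative interactions. Of 29 genes, 8 were higher and 2 lower with SA at 20 h, and 13 were higher at 5 h. The interaction was called negative for 7 and positive for none, with a median of -0.33, and without replicate 2 of SA 20 h it was called negative for 6. A negative sign was found in 27 of the 29, a description that includes members that did not pass.

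Gbp5, an interferon-inducible GTPase, had the largest of these. Gbp5 read 2.71, 2.86, 2.93 and 3.25 in SA cells of 20 h, against 3.21, 3.00, 2.93 and 3.23 in OA cells of 20 h. The values of 5 h were 4.73, 5.40, 4.86 and 5.17 with SA and 3.70, 3.56, 3.34 and 4.16 with OA. SA lay above OA at 5 h without overlap, and at 20 h all 8 arrays lay together at a low level. Its interaction was -1.51 (SE 0.24, adjusted p = 0.000528). The antiviral GTPases Mx2 and Mx1 had -1.38 (SE 0.26, adjusted p = 0.00326) and -0.86 (SE 0.16, adjusted p = 0.0023), also with SA above OA at 5 h alone. At 20 h both were dim, below the probe set median of 4.30. Mx2 averaged 3.185 in SA and 3.451 in OA cells of 20 h, and Mx1 3.355 and 3.561. At 5 h, Mx2 averaged 4.954 in SA, 3.845 in OA and 4.248 in vehicle cells, and Mx1 4.574, 3.924 and 4.542. Irf1, a transcription factor of interferon responses, was above OA at both times, by 0.80 at 20 h and 1.72 at 5 h, with -0.92 (SE 0.17, adjusted p = 0.0021). Its second probe set gave -0.56 (adjusted p = 0.048). Ifit1, an antiviral RNA-binding protein, was above OA by 1.09 and 1.24, an interaction of -0.14 (SE 0.33, adjusted p = 0.918).

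In 22 genes the sign of the SA minus OA difference turned, with both differences called. In 17 of them SA was below OA at 20 h and above it at 5 h: Cd83, Icam1, Sdc4, Nlrp3, Il15, Gas7, Hbegf, Rapgef5, Nfkbiz, Fzd7, Fmnl2, Ifi203, Jag1, Idi1, Micall2, Fchsd2 and Notch2. In Ptch1, Cmas, Csf2rb, Cd24a and Ephx1 SA was above OA at 20 h and below it at 5 h. In all 22 the SA and OA arrays did not overlap at either time, which follows in large part from both differences being called, and 20 turned without replicate 2 of SA 20 h.

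Nlrp3, the sensor of the inflammasome that saturated acids can activate, is one of them. The SA arrays of 20 h held 5.25, 5.07, 5.11 and 5.20 for Nlrp3, and the OA arrays 5.39, 5.62, 5.35 and 5.53. SA cells of 5 h had 7.53, 7.28, 7.56 and 7.63, against 6.74, 6.59, 6.74 and 6.58 in OA cells of 5 h. Every SA array was below every OA array at 20 h and above every one at 5 h, at a lower level under both acids at 20 h. The interaction was -1.15 (SE 0.13, adjusted p = 1.69e-05). Icam1, an adhesion molecule that NF-kB induces, turned likewise. Log2 expression of Icam1 was 5.92, 5.80, 5.69 and 5.96 in SA cells and 6.46, 6.26, 6.10 and 6.19 in OA cells at 20 h. At the earlier time it was 7.96, 8.05, 8.28 and 8.18 in SA cells and 7.36, 7.0, 7.02 and 7.06 in OA cells. Its difference was -0.41 at 20 h and 1.00 at 5 h, an interaction of -1.42 (SE 0.15, adjusted p = 8.19e-06). Cd83, a surface marker of activation, Sdc4, a heparan sulfate proteoglycan, and the cytokine Il15 turned in the same direction, Il15 with -1.15 (SE 0.18, adjusted p = 0.000463). Ephx1, an epoxide hydrolase, turned the other way. At 20 h, Ephx1 read 7.80, 7.56, 7.74 and 7.72 on the SA arrays and 6.90, 6.97, 6.94 and 6.86 on the OA arrays. At 5 h, the SA arrays read 6.49, 6.31, 6.42 and 6.59 and the OA arrays 6.75, 6.68, 6.93 and 6.75. Its OA values overlapped between the times, and its SA values lay above all OA values at 20 h and below them at 5 h.

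Of 15 inflammasome genes, Nlrp3 included, 1 was called positive and 3 negative, where 1.34% and 2.91% of all probe sets were. The list median was -0.20. The channel Panx1 had 0.59 (SE 0.14, adjusted p = 0.0233), and 0.54 without replicate 2 of SA 20 h (adjusted p = 0.0444). The other negative calls were the sensor Nlrp1b -0.97 (SE 0.14, adjusted p = 0.000217), and the cytokine Il18 -0.87 (SE 0.19, adjusted p = 0.0114). Of 27 immediate early and MAP kinase feedback genes, 4 were called negative and none positive, against the same shares of all probe sets. The MAP kinase inhibitor Spred1 had -1.06 (SE 0.11, adjusted p = 6.66e-06), Phlda1 -0.90 (SE 0.18, adjusted p = 0.00462), and the factors Egr1 and Fos -0.74 (SE 0.16, adjusted p = 0.00931) and -0.51 (SE 0.13, adjusted p = 0.0298), that of Fos lost under 11 alternatives.

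Some sterol genes had a called negative interaction, where 2.91% of all probe sets were called negative and 1.34% positive. Of 17 cholesterol synthesis genes, 5 were above OA and 1 below at 20 h, and at 5 h 12 were above and none below. The interaction was called negative for 2 and positive for none, with a median of -0.27. A negative sign was found in 16 of the 17, which includes members that did not pass. Idi1, the isomerase of isoprenoid synthesis, turned its sign. Idi1 read 6.27, 5.88, 6.04 and 6.37 in SA cells of 20 h, against 6.37, 6.41, 6.64 and 6.68 in OA cells of 20 h. The values of 5 h were 7.22, 7.10, 7.14 and 7.14 with SA and 6.77, 6.56, 6.77 and 6.54 with OA. Its interaction was -0.88 (adjusted p = 0.0015), and Msmo1, a sterol oxidase, had -0.52 (adjusted p = 0.00832). Hmgcs1, at the head of the pathway, had -0.26 (SE 0.14, adjusted p = 0.438).

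Insig1, which retains the sterol sensor of SREBP in the ER, is itself an SREBP target. The SA arrays of 20 h held 8.67, 8.35, 8.73 and 8.54 for Insig1, and the OA arrays 7.86, 7.62, 7.67 and 7.59. SA cells of 5 h had 9.32, 9.39, 9.31 and 9.39, against 8.04, 7.80, 7.66 and 7.75 in OA cells of 5 h. SA was above OA on every array at both times, by less at 20 h, with an interaction of -0.66 (SE 0.14, adjusted p = 0.0088). Of the 8 SREBP regulators and sterol uptake genes, Insig1 and the sterol carrier Stard4 (-0.64, adjusted p = 0.0186) were called negative and none positive. A negative sign was found in 7 of the 8, which includes members that did not pass. Of 12 LXR targets, 3 were called negative and none positive, with or without replicate 2 of SA 20 h. Over all probe sets, 2.91% were called negative. Pltp, the phospholipid transfer protein, had -1.45 (SE 0.13, adjusted p = 1.27e-06), the cholesterol exporter Abca1 -0.88 (SE 0.10, adjusted p = 2.65e-05), and the receptor Nr1h3, or LXR alpha, -0.72 (SE 0.15, adjusted p = 0.0057). Abca1 averaged 7.83 ± 0.08 in SA and 8.55 ± 0.05 in OA cells at 20 h, and 8.75 ± 0.07 in SA and 8.59 ± 0.03 in OA cells at 5 h (SD, n = 4 each), with every SA array above every OA array at 5 h although that difference was not called.

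Other lipid genes had scattered calls in both directions, where 1.34% of all probe sets were called positive and 2.91% negative. Among 18 fatty acid synthesis and desaturation genes Acss2, which activates acetate, was positive (1.10, adjusted p = 0.000204) and the desaturase Scd2 negative (-0.48, adjusted p = 0.0251). Scd1, the desaturase that makes oleic from stearic acid, was above OA at both times, with 0.33 (SE 0.29, adjusted p = 0.722). None of 23 PPAR targets and fatty acid oxidation genes was called in either direction, which is near those shares for a list of this size. At 20 h, 4 of them were above and 6 below OA, where 6.81% and 8.33% of all probe sets were. Pdk4, a member of this list that restrains glucose oxidation, was dim, with group means between 2.51 and 2.79. It had 0.22 (SE 0.24, adjusted p = 0.784). Among 20 lipid droplet and triglyceride genes, Abhd5, the activator of triglyceride lipase, was positive (0.59, adjusted p = 0.00125) and Acsl5 negative (-0.52, adjusted p = 0.00949). The droplet coat protein Plin2 had 0.14 (SE 0.10, adjusted p = 0.636), and its 16 values lay between 10.16 and 10.59, against 9.44 ± 0.07 (SD, n = 3) in vehicle cells. Among 21 ceramide and sphingolipid enzymes, the ceramide synthases Cers4 and Cers6 had -0.82 (SE 0.17, adjusted p = 0.00591) and -0.73 (SE 0.10, adjusted p = 0.000161), and the sphingomyelin synthase Sgms2 had 1.19 (SE 0.19, adjusted p = 0.000562).

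The largest positive interaction belonged to Bex1, an X-linked adaptor protein known from neurons. Log2 expression of Bex1 was 7.63, 7.45, 8.12 and 7.53 in SA cells and 5.37, 6.12, 5.65 and 5.92 in OA cells at 20 h. At the earlier time it was 5.52, 4.53, 5.04 and 5.06 in SA cells and 5.54, 5.28, 5.49 and 5.21 in OA cells. SA cells of 20 h stood above all other arrays by more than 1 log2 unit, and the interaction was 2.26 (SE 0.27, adjusted p = 2.75e-05). Cox6a2, the heart and muscle form of a cytochrome oxidase subunit, was the single call among 25 respiratory chain and ATP synthase genes. It averaged 7.27 ± 0.24 in SA and 5.35 ± 0.26 in OA cells at 20 h, and 5.39 ± 0.09 in SA and 5.42 ± 0.22 in OA cells at 5 h (SD, n = 4 each), an interaction of 1.96 (SE 0.20, adjusted p = 3.86e-06). Chchd10, a protein of the mitochondrial intermembrane space, had 1.90 (SE 0.24, adjusted p = 5.91e-05). Met, the receptor of hepatocyte growth factor, had 1.70 (SE 0.15, adjusted p = 1.11e-06), with a rise of 0.80 under SA and a fall of 0.89 on the log2 scale under OA. For Bex1, Cox6a2 and Chchd10 the groups overlapped at 5 h, and in Met SA was above OA at both times.

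Of 25 genes of glycolysis and the hypoxia response, 3 were called negative and 1 positive, where 2.91% and 1.34% of all probe sets were. Pdk1, which restrains pyruvate oxidation, had -0.83 (SE 0.13, adjusted p = 0.000657), Ldha, which makes lactate, -0.69 (SE 0.13, adjusted p = 0.003), and Tpi1 -0.56 (SE 0.13, adjusted p = 0.0172), whereas the hexokinase Hk2 had 0.60 (SE 0.16, adjusted p = 0.046), a call lost under 16 alternatives. Of 13 heat shock proteins 2 were positive, Hspa4l (0.77, adjusted p = 0.00246) and Hsph1 (0.47, adjusted p = 0.0266), and none negative. No member of the lysosome list of 24 or the Bcl2 family list of 14 was called. Of 10 housekeeping genes 1 was called, Gusb, a lysosomal enzyme (-0.72, adjusted p = 0.00182).

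Markers of other cells gave a single call. Those of dendritic cells (11), lymphocytes (12), erythroid and mast cells (11) and stromal cells (10) had none. Their mean level on an array lay between 2.71 and 3.89, below the probe set median of 4.30. Single members lay above that median: 3 dendritic (Ccr7, Batf3, Bst1), 2 lymphocyte (Cd79b, Il7r) and 4 stromal markers (Col1a1, Col1a2, Acta2, Postn). Neutrophil markers were brighter. Their mean was 6.41 to 6.71 on SA and 6.76 to 6.82 on OA arrays at 20 h, and 5.98 to 6.35 on SA and 6.33 to 6.48 on OA arrays at 5 h. Of the 13, 10 lay above the probe set median, among them S100a8, S100a9, Ngp and Camp, and Mmp9, a gelatinase that macrophages also make, had a negative interaction of -1.70 (adjusted p = 1.93e-06). With time, 7 members rose and 1 fell under SA, and 4 rose and none fell under OA. Over all probe sets 5.59% rose and 6.03% fell under SA, and 2.11% rose and 1.5% fell under OA. At 20 h SA was below OA in 2 members and above in none, against 8.33% and 6.81% of all probe sets. The part of such cells in the results above was not tested.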

How the data were processed

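The values the authors deposited are log2 expression per probe set. The submitters' processing notes name RMA and limma, without their roles. Versions and the annotation behind the values are not given in the sources used here. RMA as usually run brings arrays to a common distribution, which leaves differences relative to the other probe sets. The number of arrays per group, 4, limits the precision.

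Of 35556 probe sets, 21789 had 1 gene symbol in the probe table (19938 genes), 1621 had several and 12146 were not in that table. For the 999 genes with more than 1 probe set, lists and named genes use that with the highest mean over the 16 arrays.

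One linear model with a mean per group was fitted to the 16 arrays with limma 3.58.1 in R 4.3.3 (lmFit and eBayes, two-sided), with Benjamini-Hochberg adjustment over all probe sets of a contrast and calls under 0.05. The 34 lists (701 genes, 654 measured) were described by counts and medians with no list test. The lists, rules and comparisons were chosen with earlier results of these data known.

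The genes named with full statistics, 92 in all, were the 10 largest positive and 10 largest negative called interactions, up to 4 called members of each list with at least 3 calls, up to 8 turned genes and 25 anchor genes. Other genes of a list are named as single calls, as members already mentioned by their role, or as exceptions, and were chosen after their values were seen.

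Alternatives tried were robust moderation with a variance trend, array medians set equal, quantile normalization, array weights, no probe sets of the dimmest 25%, 1 probe set per gene, every probe set, all 23 arrays, the replicate number as a block, and the loss of each array in turn. Promoter windows are RefSeq's (GRCm38.p6), in which 27025 genes had at least 1 window. The share of an element in a list reflects the choice of its genes and is not a result of these samples. Python 3.11.15 with matplotlib 3.10.9 served for summaries and figures.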

Additional observations from a re-analysis of the deposited data

Results flagged for a closer look

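In the groups of 4 arrays, 15 of 368 groups of named genes held an array far from the other 3 (by Dixon's ratio of the gap to the range, at its 95% critical value), and chance gives about 1 in 20. In SA cells of 20 h, replicate 2 was low for Bub1 at 2.29 and for Gclm at 9.54, and high for Panx1 at 7.84. Replicate 1 was high for Cat at 10.32, and replicate 3 was low for Cdk6 at 7.27 and for Slc9a9 at 4.17. In OA cells of 20 h, replicate 3 was high for Micall2 at 6.52, and replicate 4 was low for Zfp36 at 8.67 and for Anln at 5.67. In SA cells of 5 h, replicate 3 was low for Mrc1 at 7.71 and for Cers4 at 4.05, replicate 2 low for Pltp at 9.26, and replicate 1 low for Plin2 at 10.16. In OA cells of 5 h, replicate 3 was high for Gsta3 at 4.48 and replicate 4 low for Slc7a11 at 6.80.

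In 11 named genes every SA array lay below every OA array at 20 h and above every one at 5 h, and the interaction, which tests that difference, was called in each. It was -1.15 for Nlrp3, -1.15 for Il15, -1.12 for Gas7, -1.09 for Hbegf and -0.98 for Rapgef5. It was -0.94 for Nfkbiz, -0.94 for Fzd7, -0.93 for Fmnl2, -0.92 for Ifi203, -0.88 for Abca1 and -0.86 for Micall2. Of these, the difference of Abca1 at 5 h, 0.16, was not called.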

How the results depend on the processing

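No called interaction of a named gene changed sign under the alternatives run. Counts of the interaction ranged over 235 to 338 positive and 527 to 673 negative probe sets when each array was left out. Among the other settings, quantile normalization gave the most positive ones, 403, with 657 negative. The variance trend with robust moderation gave the most negative ones, 799, with 397 positive. The fewest under those settings were 281 positive and 548 negative. Leaving out an array gave 275 to 543 probe sets that rose with time under OA (460 with all arrays), the lowest without OA 20 h replicate 1, with 292 without OA 20 h replicate 2, 304 without OA 5 h replicate 2 and 306 without OA 5 h replicate 3. It gave 3 to 5 negative NF-kB subunits (5 with all), 3 without OA 5 h replicate 2 or SA 5 h replicate 4. It gave 15 to 35 interactions called at neither time (26 with all), 15 without OA 5 h replicate 2, 16 without OA 20 h replicate 2 and 17 without OA 20 h replicate 1 or 3. It gave 7 to 13 that were smaller at 20 h (12 with all), 7 without OA 20 h replicate 4, and 12 to 22 turned genes (22 with all), 12 without OA 5 h replicate 3. Centring on array medians left 3 negative NF-kB subunits, and a variance trend with robust moderation gave 198 probe sets with the same sign and a larger difference at 20 h, against 128. The calls of Bcl3, Cdkn2c, Fos, Hk2, Prim1 and Panx1 were lost under 14, 16, 11, 16, 9 and 2 alternatives, Ddit3 passed under 7 and Tnf under 1. List medians near 0 changed sign under some settings for tRNA synthetases, ceramide enzymes, lipid droplet, PPAR and p53 genes and the markers of dendritic, erythroid and mast, and stromal cells. With the replicate number as a block, 281 probe sets were positive and 617 negative, and the call of Bcl3 (adjusted p = 0.057) and that of Hk2 (adjusted p = 0.0584) were lost while that of Ddit3 (adjusted p = 0.0408) was gained. Deviations of same-numbered samples correlated at -0.112 to 0.199, 5 of 24 over 0.1, against 2 of 72 pairs of different number. Of 16 arrays, 9 correlated best with 1 of their own number, a hint of shared structure from the data and not the design, and the numbers were not taken as pairs because most same-numbered correlations were not over 0.1. Il6 and Pdk4 had no value without the dimmest 25% of probe sets, which they belong to. The causes were not tested.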
